A study of Arabidopsis thaliana with 12 samples.

Results

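The comparison described here sets the SUMO ligase mutant siz1-3 of Arabidopsis thaliana against its wild type Col-0 in plants that had received no stress. Its members are the 3 arrays titled siz1-3 control and the 3 titled Col-0 control, 6 of the 12 ATH1 GeneChip arrays of the study. The other 6 arrays are the same genotypes after 2 h of dehydration, again 3 of each. Their means do not enter the unstressed fold changes, but all 12 arrays share 1 estimate of the spread, so they bear on the unstressed p-values. The plants were 3 weeks old by their labels, and the label of Col-0 control replicate 1 gives 21 days. Neither genotype is labelled with a transgene, the mutant is represented by 1 allele, and no complemented line is among the samples. No tissue is named, and nothing says that replicates came from separate plantings, so p-values here reflect nothing beyond the spread among these arrays, part of which may be technical.

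SUMO is a small protein that is joined to other proteins through an activating enzyme, a conjugating enzyme and, for many targets, a ligase, and it alters how those targets act or last. SIZ1 encodes the main such ligase known in Arabidopsis. Plants that lack it are known to be dwarfed, to hold more salicylic acid, the hormone of defence against biotrophic pathogens, and to tolerate cold poorly. The unstressed comparison therefore bears on immunity, cold acclimation and growth before any treatment.

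In unstressed siz1-3, some genes of defence, calcium signalling and specialized metabolism were raised, among them CHI, SBT3.3, GLR2.8 and F6'H1. Most measured genes of cold acclimation were lowered, with ORA47 of the jasmonate pathway and a part of the genes of wall loosening, tubulin and sugar transport. Of 22746 probe sets tested, 3955 differed at an adjusted p under 0.05 (17.4%), 2024 of them higher in siz1-3 (8.9%) and 1931 lower (8.49%). Counts of list and family members below stand beside these shares. The p-values are limma's, adjusted by the Benjamini-Hochberg method over all probe sets. "Rose" and "fell" below mean that siz1-3 was higher or lower than Col-0 by that test. Log2 fold changes are on the scale of log2(signal + 16), with their standard error, and the error after a mean signal is the SD of 3 arrays.

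The increases were larger than the decreases. A change of at least 2-fold was found at 832 probe sets that rose (3.66%) and 402 that fell (1.77%). Past 4-fold there were 247 that rose and 36 that fell, and past 8-fold 83 and 4. Of the 832, 231 had a Col-0 mean under 32, whereas 326 of the 402 started from a Col-0 mean of 100 or more. Background was not separated from low signals here, so the size of an increase from such a level is uncertain. The median log2 fold change over all probe sets was -0.03.

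**Figure D1:**
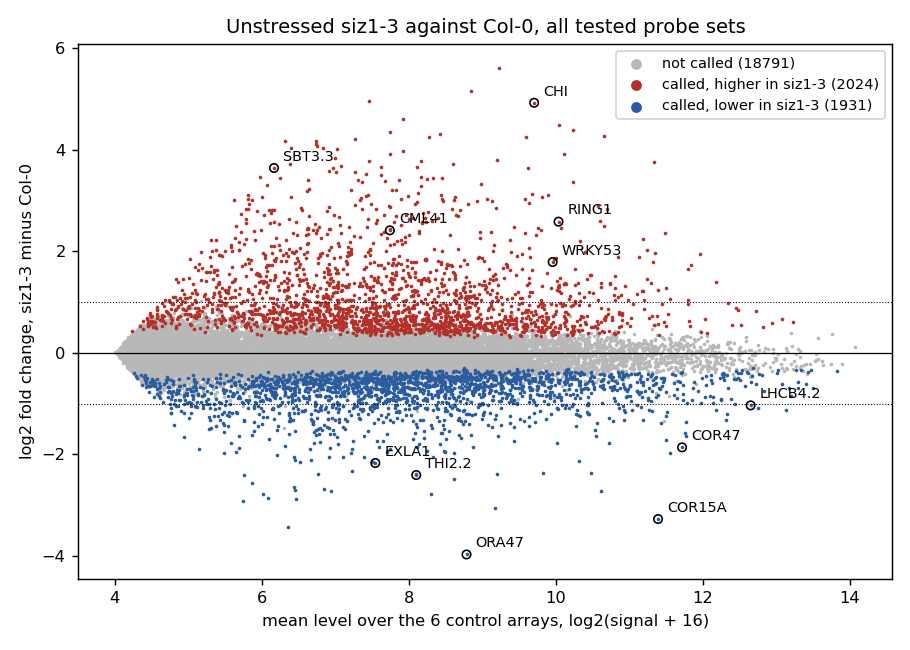
Each point is 1 probe set, with its mean level over the 6 control arrays on the horizontal axis, as log2(signal + 16), and its log2 fold change, siz1-3 minus Col-0, on the vertical axis. The 2024 probe sets called higher reach further from 0 than the 1931 called lower, and dotted lines mark 2-fold.

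The arrays were alike in scale: their trimmed means lay between 250.02 and 250.03, and the medians of the 6 control arrays between 84.28 and 87.67. The 3' to 5' ratio of actin, read as a sign of RNA quality, ran from 8.89 to 15.5 in the Col-0 control arrays. In those of siz1-3 it was 18.95, 17.73 and 8.29, so the groups overlap, but replicates 1 and 2 lay above every Col-0 control array. The actin signal was thus weighted to the 3' end on every array. The same ratio of GAPDH ran from 1.08 to 1.34 in Col-0 and from 1.09 to 1.74 in siz1-3. Names rest on a platform annotation that pairs 13513 probe sets with exactly 1 gene, 13436 of which were found in the reference gene table, 1551 with a symbol. Many well-known genes are therefore not named here, and lists are described by the few members that could be measured. The labelled plants were checked against markers of mesophyll, root, guard cells and pollen. The 2 measured mesophyll genes, RCA and AT1G11860, summed to between 11746 and 12274 in Col-0 and between 11098 and 12748 in siz1-3. The 1 measured pollen gene stayed under 3 on every control array, and no measured gene stood for seeds or vasculature.

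SIZ1 itself, the check on the genotype, is read by 2 probe sets that disagree. The brighter one read 450.5, 428 and 286 in Col-0 and 160, 172 and 177 in siz1-3. It fell (-1.10 ± 0.17, adjusted p = 0.000497 by limma). The dimmer one rose from 17.3 ± 8.41 to 87.6 ± 23.3 (1.64 ± 0.31, adjusted p = 0.0027). In neither probe set did the genotypes overlap. Two-sided exact permutation gave p = 0.1 for both, which no design of 3 against 3 can go below. Which part of the transcript each probe set reads, before or after the mutation, was not determined. Of the SUMO pathway list, 5 of 19 members were measured. SAE1A, a subunit of the SUMO-activating enzyme, rose from 359 ± 39.2 to 551 ± 32.9 (0.60 ± 0.11, adjusted p = 0.00255), and the 3 besides SIZ1 and SAE1A did not pass.

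The largest increase at a named gene was that of CHI, which encodes a chitinase, an enzyme that cuts the wall polymer of fungi. It read 163, 125 and 122 in the Col-0 arrays and 4212, 4077 and 5646 in siz1-3. The groups do not overlap, and the change was 30.4-fold (log2 4.92 ± 0.22, adjusted p = 3.49e-08). SBT3.3, a subtilisin-like protease known for priming defence genes, read 2.81, 8.01 and 2.74 in Col-0 and 238, 228 and 249 in siz1-3. Its signal in Col-0 was thus at the bottom of the scale, and it rose by 3.64 ± 0.12 (adjusted p = 1.32e-08). RING1, a RING-type ubiquitin ligase linked to pathogen-triggered cell death, was already expressed in Col-0, at 459, 350.5 and 442. It reached 2582, 2024 and 3216 in siz1-3 (2.58 ± 0.17, adjusted p = 4.98e-07). SGT1A, a co-chaperone of intracellular immune receptors, rose from 363 ± 21.2 to 1165 ± 71.8 (1.64 ± 0.11, adjusted p = 5.09e-07).

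Genes around salicylic acid moved with these. The list of salicylic acid and systemic acquired resistance had 6 of 46 members measured. Of these 4 rose, 0 fell and 2 did not pass, against 8.9% of all probe sets that rose, and their median log2 fold change was 1.00 against -0.03. UGT76B1, a glucosyltransferase that inactivates salicylic acid and related defence signals, read 18.5, 13.7 and 20.6 in Col-0 and 139, 129 and 166 in siz1-3 (2.26 ± 0.13, adjusted p = 1.57e-07). SAG101, a lipase-like partner of the immune regulator EDS1, rose from 90.3 ± 12.3 to 202 ± 4.09 (1.04 ± 0.12, adjusted p = 4.43e-05). AT5G52810, which carries only a locus code in the reference, rose from 73.2 ± 19.7 to 436 ± 113 (2.34 ± 0.21, adjusted p = 5.59e-06). AT5G03350, likewise without a symbol, was bright in both genotypes, at 3738, 1734 and 2584 in Col-0 and 4713, 5197 and 5012 in siz1-3. It rose by 0.95 ± 0.24 (adjusted p = 0.0148), and without Col-0 control replicate 2, its lowest array, it missed the threshold (0.67, adjusted p = 0.051).

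The other 2 measured members of that list did not pass. GRX480, a glutaredoxin gene induced by salicylic acid, was at 298 ± 20.9 and 388 ± 80.8 (adjusted p = 0.158). Without siz1-3 control replicate 1 it passed (adjusted p = 0.0293). BSMT1, which makes volatile methyl esters of salicylic and benzoic acid, was dim in both genotypes, at 23.2 ± 17.7 and 9.69 ± 8.86 (adjusted p = 0.249). It passed only without Col-0 control replicate 1, as lower in siz1-3 (adjusted p = 0.043).

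WRKY factors, transcription factors that carry much of the plant immune response, were divided. Of 7 measured, 3 rose and 1 fell, against 8.9% and 8.49% of all probe sets. WRKY53, which acts in leaf senescence and the response to salicylic acid, read 634, 404 and 548 in Col-0 and 1677, 1979 and 1861 in siz1-3 (1.79 ± 0.19, adjusted p = 2.72e-05). WRKY6, known from senescence and defence, rose from 40.7 ± 1.49 to 195 ± 41.9 (1.88 ± 0.14, adjusted p = 1.1e-06). WRKY47 rose from 37.5 ± 3.31 to 152.5 ± 6.72 (1.66 ± 0.12, adjusted p = 1e-06). WRKY22, a factor downstream of flagellin perception, went the other way, from 194, 151 and 174 to 55.6, 71.5 and 54.1 (-1.31 ± 0.21, adjusted p = 0.000785).

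The list of immune receptors and their signalling had 5 of 44 members measured, of which 4 rose and 1 fell, with a median of 0.67. Over all probe sets 8.9% rose and 8.49% fell. The members measured were the receptors EFR and SD1-29, the kinase BIK1, and PUB23 and PUB22, ubiquitin ligases that damp such signalling. PUB22 was the 1 that fell. EFR, the receptor for bacterial elongation factor Tu, rose from 18.2 ± 3.06 to 38.3 ± 4.84 (0.67 ± 0.13, adjusted p = 0.00355), a dim pair of values whose call ended with a floor of 32 on the signal (adjusted p = 0.0582). SD1-29, the receptor kinase for bacterial hydroxylated fatty acids, rose from 76.3 ± 7.74 to 131 ± 3.65 (0.68 ± 0.15, adjusted p = 0.00865). BIK1, the cytoplasmic kinase that such receptors release, was at 257 ± 34.0 and 360 ± 41.8 (0.46 ± 0.14, adjusted p = 0.0425). The BIK1 call was weak: it ended under 13 of 21 alternative settings, with adjusted p up to 0.154 without Col-0 control replicate 2.

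The U-box ubiquitin ligases PUB22, PUB23 and PUB24, known to damp receptor signalling together, did not move as a group. PUB24 rose from 134 ± 34.8 to 422 ± 48.2 (1.56 ± 0.18, adjusted p = 4.25e-05) and PUB23 from 138.5 ± 46.6 to 312 ± 38.0 (1.13 ± 0.20, adjusted p = 0.00188). PUB22 fell from 56.6 ± 13.8 to 28.5 ± 3.63 (-0.69 ± 0.15, adjusted p = 0.00551). PUB19, a U-box ligase gene induced by drought, was at 192, 103 and 157 in Col-0 and 33.0, 105 and 49.5 in siz1-3. These groups overlap; the PUB19 change of -1.15 ± 0.28 passed in the fit over 12 arrays (adjusted p = 0.0111) but not on the 6 control arrays alone (0.0668) or without Col-0 control replicate 1 (0.0513).

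Some calcium signalling genes rose. Glutamate receptor-like channels, which open to amino acids and carry calcium across membranes, had 8 members measured. Of these 3 rose, 0 fell and 5 did not pass (median 0.18), against 8.9% of all probe sets that rose. This family was added after values were seen, so its count is a description and no test. The neighbouring genes GLR2.8 and GLR2.7 read 22.3, 18.0 and 18.3 and 32.1, 34.2 and 25.9 in Col-0. In siz1-3 GLR2.8 was at 235.5, 197 and 270 (2.81 ± 0.18, adjusted p = 4.58e-07), and GLR2.7 at 207, 238 and 260 (2.42 ± 0.13, adjusted p = 1.09e-07). GLR1.4 rose from 47.1 ± 5.41 to 169 ± 31.9 (1.54 ± 0.14, adjusted p = 1.02e-05).

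Of 9 measured genes for calmodulin-like proteins, which bind the calcium that enters, 4 rose, 0 fell and 5 did not pass (median 0.15). Over all probe sets 8.9% rose. CML41, a regulator of plasmodesmata in immunity, read 63.1, 76.8 and 93.6 in Col-0 and 475, 482 and 479 in siz1-3 (2.41 ± 0.13, adjusted p = 1.55e-07). CML37 rose from 39.0 ± 21.4 to 265 ± 28.0 (2.44 ± 0.24, adjusted p = 1.58e-05) and CML42 from 283.5 ± 23.8 to 631 ± 14.7 (1.11 ± 0.11, adjusted p = 1.77e-05). CML43 was dimmer, at 19.3 ± 13.0 and 66.5 ± 18.3 (1.28 ± 0.30, adjusted p = 0.00979), and its call ended with a pseudocount of 1 (adjusted p = 0.0969).

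**Figure D2:**
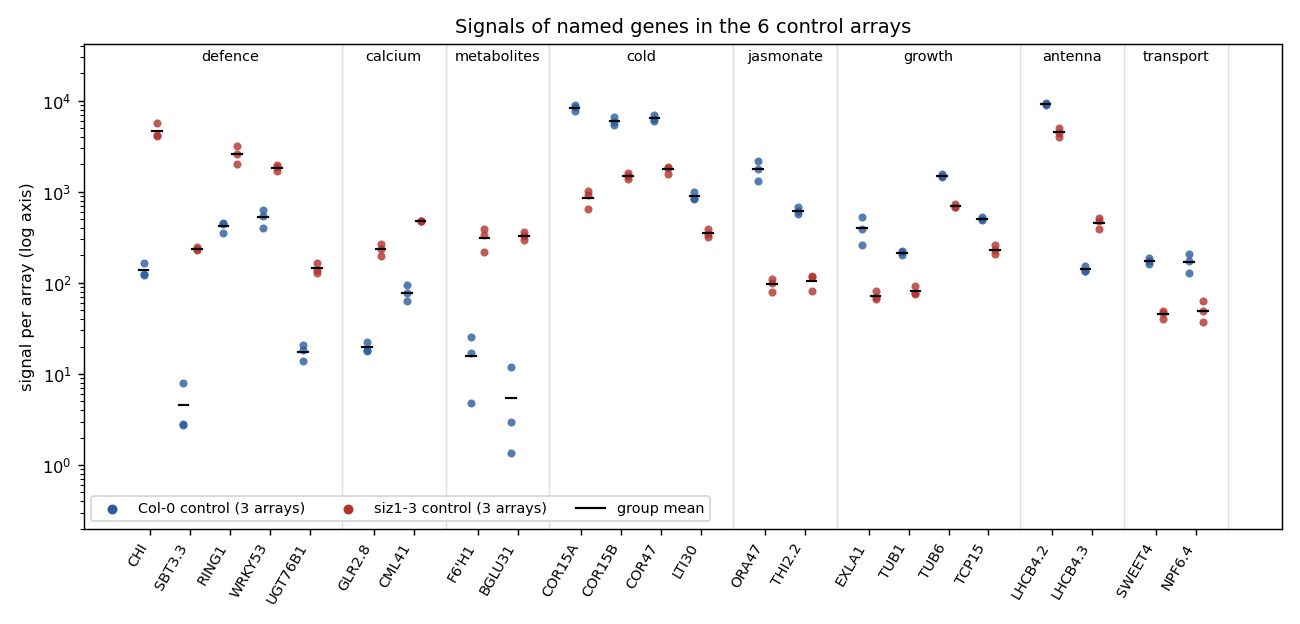
Signals of 23 named genes on the 3 Col-0 control arrays (blue) and the 3 siz1-3 control arrays (red), on a log axis, with a bar at each group mean, in blocks by role. In every gene drawn the 2 groups of arrays are apart, and many were picked among genes whose groups do not overlap. Over all probe sets siz1-3 lay wholly above Col-0 at 15.1% and wholly below at 17.2%. Defence, calcium and metabolite genes are higher in siz1-3, cold, jasmonate, growth and transport genes lower, and 1 antenna gene goes each way.

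Genes for specialized metabolites, the compounds plants make for defence and signalling, contained some of the largest increases. F6'H1 (AT3G13610), which makes the precursor of the antimicrobial coumarin scopoletin, read 17.1, 4.77 and 25.7 in Col-0 and 336, 219 and 387 in siz1-3 (3.39 ± 0.30, adjusted p = 5.84e-06). CCOAMT, a caffeoyl-CoA methyltransferase gene, rose from 84.4 ± 27.1 to 1069 ± 236 (3.45 ± 0.33, adjusted p = 1.14e-05). LUP5, of the oxidosqualene cyclases that build triterpenes, read 1.58, 12.1 and 8.54 in Col-0 and 309, 277 and 279 in siz1-3 (3.73 ± 0.28, adjusted p = 1.47e-06). BGLU31, a beta-glucosidase gene, went from 5.38 ± 5.61 to 326 ± 35.6 (4.03 ± 0.22, adjusted p = 1.36e-07). The 22 measured beta-glucosidases as a family had a median of -0.12. Of them 2 rose and 3 fell, against 8.9% and 8.49% of all probe sets.

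The cytochrome P450 subfamily CYP71B had 19 members measured. Of these 5 rose, 0 fell and 14 missed the threshold, with a median of -0.02, so most members were near 0. Over all probe sets 8.9% rose and 8.49% fell. CYP71B23 rose from 41.2 ± 5.01 to 454 ± 107 (3.01 ± 0.20, adjusted p = 4.96e-07). CYP71B36, CYP71B24 and CYP71B6 rose by 1.83, 1.50 and 0.99. The UDP-glycosyltransferases, which attach sugars to hormones and metabolites, showed the same shape. Of 51 measured, 9 rose and 3 fell, against the same 8.9% and 8.49%, and the median was -0.02. UGT87A2 read 157, 162 and 153 in Col-0 and 1350, 1301 and 1443 in siz1-3 (2.99 ± 0.12, adjusted p = 2.15e-08). UGT73D1, UGT73B5 and UGT71B6 rose by 2.02, 1.96 and 1.75, from Col-0 means of 5.09, 25.0 and 34.6.

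Single genes of redox, folding and the wall were raised, and the lists and families around them differed. Of the reactive oxygen and redox list 0 of 3 measured members passed (limma). Of 6 class III peroxidases 2 rose, 0 fell and 4 did not pass (median 0.35). Of 4 pectin enzymes 2 rose, 0 fell and 2 did not pass (median 0.48). Of 12 glutathione S-transferases 1 rose and 1 fell, with a median of -0.22. Over all probe sets 8.9% rose and 8.49% fell. PRX71 (AT5G64120), a class III peroxidase of the wall, rose from 107 ± 29.2 to 693 ± 64.5 (2.56 ± 0.19, adjusted p = 1.17e-06). YLS5, a DJ-1 family gene, rose from 294 ± 24.6 to 1438 ± 211 (2.22 ± 0.13, adjusted p = 2.03e-07), and NDB2, an alternative mitochondrial NAD(P)H dehydrogenase, from 65.7 ± 11.9 to 159 ± 7.51 (1.10 ± 0.13, adjusted p = 6.54e-05). Of the methionine sulfoxide reductases, which repair oxidized proteins, MSRB9 rose from 281 ± 54.3 to 1624 ± 256 and MSRB6 fell from 1522 ± 140 to 700.0 ± 65.1 (2.47 and -1.10, adjusted p = 1.32e-05 and 2.53e-05). SAL2, of the inositol polyphosphate phosphatase family, rose from 29.0 ± 2.06 to 517 ± 34.1 (3.57 ± 0.14, adjusted p = 2.15e-08). PME41, a pectin methylesterase (ATPMEPCRB), rose from 63.6 ± 15.1 to 564 ± 13.4, and the fructan exohydrolase gene cwINV6 from 16.3 ± 9.10 to 167 ± 12.7 (2.88 and 2.54, adjusted p = 3.83e-07 and 3.16e-06).

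Among chaperones, Hsp70-2 read 93.4, 102 and 96.5 in Col-0 and 840.0, 673 and 731 in siz1-3 (2.75 ± 0.21, adjusted p = 1.59e-06). ERDJ3B (ATERDJ3B), a co-chaperone of the endoplasmic reticulum that matures immune receptors, rose from 482 ± 46.7 to 1272 ± 111 (1.37 ± 0.14, adjusted p = 1.87e-05). BZIP60, the factor that turns on the unfolded protein response there, rose from 746 ± 108 to 1487 ± 29.7 (0.99 ± 0.12, adjusted p = 7.67e-05). Fes1A and FKBP65 (AT5G48570), co-chaperones of the heat response, rose by 0.92 and 1.23. Of the heat shock list itself, 3 of 17 members were measured, 1 rose and 2 did not pass, against 8.9% of all probe sets that rose. So few members say little about the list.

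The cold acclimation list was lowered. Of its 5 measured members, out of 33, 4 fell, 0 rose and 1 did not pass, against 8.49% of all probe sets that fell. The list's median was -1.86 against -0.03. COR15A, whose product protects chloroplast membranes in the cold, read 8978, 8428 and 7707 in unstressed Col-0 and 1030.2, 641 and 925 in siz1-3. All 3 mutant arrays were thus far below the wild type, and the change was 9.68-fold (-3.27 ± 0.16, adjusted p = 5.85e-08). Its neighbour COR15B read 6671, 5829 and 5415 against 1622, 1374 and 1492 (-1.98 ± 0.20, adjusted p = 1.85e-05). The dehydrin gene COR47 read 7017, 6317 and 5974 against 1572, 1889 and 1816 (-1.86 ± 0.13, adjusted p = 7.63e-07). A second dehydrin gene, LTI30, read 824, 860.2 and 1002 against 388, 321 and 348 (-1.31 ± 0.12, adjusted p = 1.04e-05).

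Unstressed Col-0 thus gave bright signals for these cold-induced transcripts, and siz1-3 a weaker one for each of the 4. STZ, a zinc finger repressor of the same list, stood at 2628 ± 865 and 2719 ± 333 (0.10 ± 0.20, adjusted p = 0.817). COR27, a cold-regulated gene of the clock, was at 1392 ± 64.4 and 1389 ± 92.5 (adjusted p = 0.99). TIL, the temperature-induced lipocalin, fell from 2838 ± 286 to 1687 ± 127 (-0.74 ± 0.14, adjusted p = 0.00195). The linker histone gene HIS1-3, known as drought-induced, fell from 261 ± 38.3 to 116 ± 14.5 (-1.06 ± 0.15, adjusted p = 0.000247), and XERICO, a RING protein that raises abscisic acid, from 1239 ± 62.6 to 684 ± 77.7 (-0.85 ± 0.15, adjusted p = 0.00184). These were single genes. Of the dehydration and abscisic acid list 0 of 2 measured members passed (limma), with changes from -0.56 to 0.19. Of 7 late embryogenesis abundant proteins and dehydrins counted as a family, 1 rose, by 1.66, 1 fell and 5 did not pass (median -0.23). Over all probe sets 8.9% rose and 8.49% fell.

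The single largest decrease at a named gene was that of ORA47, an AP2/ERF factor that switches on jasmonate synthesis. It read 2196, 1323 and 1797 in Col-0 and 99.3, 111 and 78.8 in siz1-3, a 15.7-fold difference (-3.97 ± 0.18, adjusted p = 4.09e-08). The jasmonate and ethylene list had 4 of 30 members measured, and ORA47 was the 1 that fell. THI2.1 and the defensin genes PDF1.2b and PDF1.2, markers of that response, were at 135 ± 99.8 and 32.3 ± 10.7, 996 ± 281 and 523 ± 159, and 408.5 ± 109 and 258 ± 17.4. Their siz1-3 arrays lay below those of Col-0 but none passed (adjusted p = 0.0828, 0.247 and 0.602). THI2.1 passed under 3 alternatives: over the brighter 60% of probe sets (adjusted p = 0.032), on the 6 control arrays alone (just under the threshold) and without Col-0 dehydration replicate 3 (0.0176). Outside the list, the thionin gene THI2.2 read 687, 608.5 and 564 against 80.6, 115 and 119 (-2.41 ± 0.17, adjusted p = 9.28e-07). JMT, which makes methyl jasmonate, was dim at 50.1 ± 23.3 and 12.5 ± 12.8 with overlapping arrays (-1.24 ± 0.31, adjusted p = 0.0135), and its call ended under 5 alternatives.

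Some genes of cell expansion were lowered. The list of wall loosening had 13 of 42 members measured, of which 6 fell, 0 rose and 7 did not pass, against 8.49% of all probe sets that fell, with a median of -0.31. Of the 6, the calls of EXPA8, XTH18 and XTH19 ended under alternatives given below. EXLA1, an expansin-like gene, read 530, 263 and 394 in Col-0 and 66.6, 81.1 and 69.4 in siz1-3 (-2.17 ± 0.20, adjusted p = 9.6e-06). EXLA2 fell from 80.7 ± 10.1 to 27.9 ± 5.45 (-1.14 ± 0.16, adjusted p = 0.000272) and EXPB1, a beta-expansin, from 117 ± 35.9 to 54.2 ± 2.03 (-0.89 ± 0.19, adjusted p = 0.00594). Expansins loosen walls in acid so that cells can grow, and of the 19 members of the family measured 5 fell and 0 rose, with a median near 0.

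EXPA8 was the brightest expansin called, at 1450.1, 1453 and 1259 against 753, 648 and 720.0 (-0.96 ± 0.29, adjusted p = 0.0381). The call ended under 9 of 21 alternatives, among them leaving out any one of the 6 control arrays (0.0658 to 0.105). EXPA16 fell by 0.54 (adjusted p = 0.0198; up to 0.077 without siz1-3 control replicate 3). EXPA4 was at 527 ± 115 and 528 ± 50.5 (adjusted p = 0.959). Of the xyloglucan endotransglucosylases, which cut and rejoin the tethers between cellulose fibres, 10 were measured, 2 fell and 1 rose. Over all probe sets 8.49% fell and 8.9% rose. XTH19 fell from 46.2 ± 17.8 to 9.71 ± 6.62 (-1.27 ± 0.26, adjusted p = 0.00464), a call that ended with a floor of 32 (adjusted p = 0.442). XTH18 was at 79.5 ± 34.2 and 33.0 ± 2.08 (-0.89 ± 0.26, adjusted p = 0.0318), a call that ended under 8 alternatives, for example without Col-0 control replicate 3 (0.127).

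Other structural genes of growing cells fell with smaller spreads. Of 9 measured tubulin genes and cofactors, 4 fell, 0 rose and 5 did not pass (median -0.40), against 8.49% of all probe sets that fell. TUB6 read 1455, 1474 and 1566 in Col-0 and 679, 676 and 739.6 in siz1-3 (-1.08 ± 0.15, adjusted p = 0.000237). TUB1 read 222, 200.0 and 217 against 74.7, 92.2 and 78.2 (-1.23 ± 0.12, adjusted p = 1.14e-05), and TUB5 fell from 2019 ± 80.2 to 1243 ± 149 (-0.70 ± 0.13, adjusted p = 0.00191). SKU5, a glycosylphosphatidylinositol-anchored protein of directional growth, read 2489, 2519 and 2453 against 1259, 1112 and 1479 (-0.96 ± 0.16, adjusted p = 0.000865). TBL25, of the family that acetylates wall polymers, fell from 824 ± 61.9 to 420 ± 58.3 (-0.95 ± 0.15, adjusted p = 0.000528), as did GH9C2, an endoglucanase (-0.68 ± 0.17, adjusted p = 0.0144). The GH9C2 call ended without Col-0 control replicate 3 (adjusted p = 0.05) or siz1-3 control replicate 3 (0.0625).

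Signals and regulators of growth were divided. RALFL22, of the RALF peptides that control wall growth and immunity through FERONIA-type receptors, read 687, 648 and 643.5 in Col-0 and 242, 268 and 332 in siz1-3 (-1.20 ± 0.13, adjusted p = 3.52e-05). Of 11 RALF-like genes measured, 3 fell and 0 rose, against 8.49% of all probe sets that fell. RALFL34 fell by 0.51 (adjusted p = 0.0196), with a call that ended without any one of 3 control arrays (0.0511 to 0.0785). TCP15, a factor of leaf cell proliferation, fell from 507 ± 22.8 to 232 ± 25.9 (-1.08 ± 0.16, adjusted p = 0.000369). SIM, a cell cycle inhibitor that promotes endoreduplication, fell by 0.55 (adjusted p = 0.00516).

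In hormone signalling, IAA29, an auxin-response repressor, fell from 341 ± 88.4 to 164 ± 33.6 (-0.98 ± 0.18, adjusted p = 0.00215). It was the 1 that passed of 6 measured members of the auxin list (median -0.10), against 8.49% of all probe sets that fell. IAA18, outside that list, fell by 0.60 (adjusted p = 0.00513). BIM1, a brassinosteroid signalling factor, fell from 311 ± 18.0 to 147.5 ± 39.5 (-1.02 ± 0.18, adjusted p = 0.00178). GID1B, a gibberellin receptor, rose from 63.6 ± 8.83 to 126 ± 16.1 (0.83 ± 0.14, adjusted p = 0.00122). The sister receptor gene GID1A was at 324 ± 27.2 and 231 ± 14.0 (-0.46 ± 0.15, adjusted p = 0.0552), and passed under 8 of 21 alternatives. EXO, a brassinosteroid-induced growth gene, rose from 296 ± 37.2 to 796 ± 234 (1.35 ± 0.18, adjusted p = 0.000183), and ARL, an organ size gene, from 313 ± 31.7 to 544 ± 30.9 (0.77 ± 0.13, adjusted p = 0.000874). Growth genes thus did not all fall.

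The photosystem antenna gave a contrast within 1 small family. LHCB4 genes encode CP29, a minor antenna protein of photosystem II. LHCB4.2 read 9364, 9025 and 9259 in Col-0 and 3995, 4471 and 5050.0 in siz1-3, less on every mutant array (-1.04 ± 0.13, adjusted p = 9.4e-05). LHCB4.3 went up, from 134, 155 and 136.5 to 510.0, 474 and 390.0 (1.58 ± 0.13, adjusted p = 2.84e-06). LHCB4.1 was at 12843 ± 589.7 and 10131 ± 664 (-0.34 ± 0.11, adjusted p = 0.0477), a call that ended under 13 of 21 alternatives. PORB, which makes chlorophyllide in the light, fell from 6098 ± 340 to 3359.8 ± 522 (-0.87 ± 0.17, adjusted p = 0.00344). RCA, rubisco activase, stood at 8422 ± 277 and 8323 ± 631 (adjusted p = 0.936). Of 29 measured chlorophyll-binding and photosystem genes, 8 fell and 1 rose, against 8.49% and 8.9% of all probe sets, and their median was -0.42.

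Many of these are encoded in the chloroplast itself, and are described next. Of 69 plastid-encoded genes measured, 15 fell, 0 rose and 54 did not pass, and 63 of the 69 had a log2 fold change below 0 (median -0.51). Over all probe sets 8.49% fell, and 12275 of 22746 were below 0. The plastid-encoded group was added after values were seen, so its counts are a description and no test. The subunits of the plastid NDH complex, which carries cyclic electron flow, were prominent, with 6 of 10 falling. ndhJ read 752, 525 and 652 in Col-0 and 262, 211 and 114 in siz1-3 (-1.69 ± 0.38, adjusted p = 0.00816). ndhK fell from 506 ± 99.4 to 187 ± 83.6 (-1.42 ± 0.29, adjusted p = 0.00411). ndhA read 1497, 1280.2 and 1131 against 759, 482 and 275 (-1.44 ± 0.39, adjusted p = 0.0228). Its call ended under 6 alternatives, for example without siz1-3 control replicate 3, its lowest array (0.0961). Plastid genes are co-transcribed and their transcripts carry short or no poly(A) tails, so their counts are not independent and their signal depends on how the RNA was primed, which was not tested.

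Some sugar and nitrate transporter genes also changed. SWEET proteins let sugars out of cells or vacuoles. Of 16 measured 5 fell, 0 rose and 11 did not pass (median -0.05), against 8.49% of all probe sets that fell. SWEET4 read 159, 186 and 173 in Col-0 and 49.5, 40.1 and 46.3 in siz1-3 (-1.62 ± 0.12, adjusted p = 1.78e-06). The vacuolar fructose transporter genes SWEET16 and SWEET17 fell from 213.5 ± 12.5 to 66.8 ± 2.38 and from 935 ± 139 to 575 ± 40.3 (-1.47 and -0.68, adjusted p = 1.21e-05 and 0.00205). SWEET13 fell by 1.09 (adjusted p = 0.00108). Of 11 transporters of the nitrate and peptide family NPF, 1 rose, 2 fell and 8 did not pass (median -0.02). Over all probe sets 8.9% rose and 8.49% fell. NPF6.4 (AT3G21670) fell from 169 ± 39.1 to 49.6 ± 12.7 and NPF6.2 (AT2G26690) from 626 ± 16.5 to 249.5 ± 22.6 (-1.49 and -1.28, adjusted p = 4.57e-05 and 3.69e-06). NPF3.1 (AT1G68570), a gibberellin and nitrate transporter, rose from 176 ± 28.4 to 490.0 ± 42.4 (1.41 ± 0.14, adjusted p = 1.87e-05).

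Of 20 bZIP factors, 2 rose and 2 fell, shares near the 8.9% and 8.49% of all probe sets. BZIP61 fell from 462 ± 38.1 to 133 ± 16.5 and BZIP34 from 51.1 ± 13.6 to 8.03 ± 3.92 (-1.69 and -1.48, adjusted p = 5.14e-06 and 2.36e-05). The clock and flowering gene GI fell from 707 ± 93.3 to 408 ± 93.9 (-0.78 ± 0.17, adjusted p = 0.00515). Lists without a call are part of the picture too. Of the flavonoid and anthocyanin list 0 of 5 measured members passed (limma), with changes from -0.32 to 0.45, and DFR, dihydroflavonol reductase, was at 51.4 ± 18.7 and 68.9 ± 8.58 (adjusted p = 0.23; 0.0352 without Col-0 control replicate 2). Of 4 transcripts often used as references, GAPC2 and PEX4 among them, 0 passed and the changes ran from -0.23 to 0.03.

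**Figure D3:**
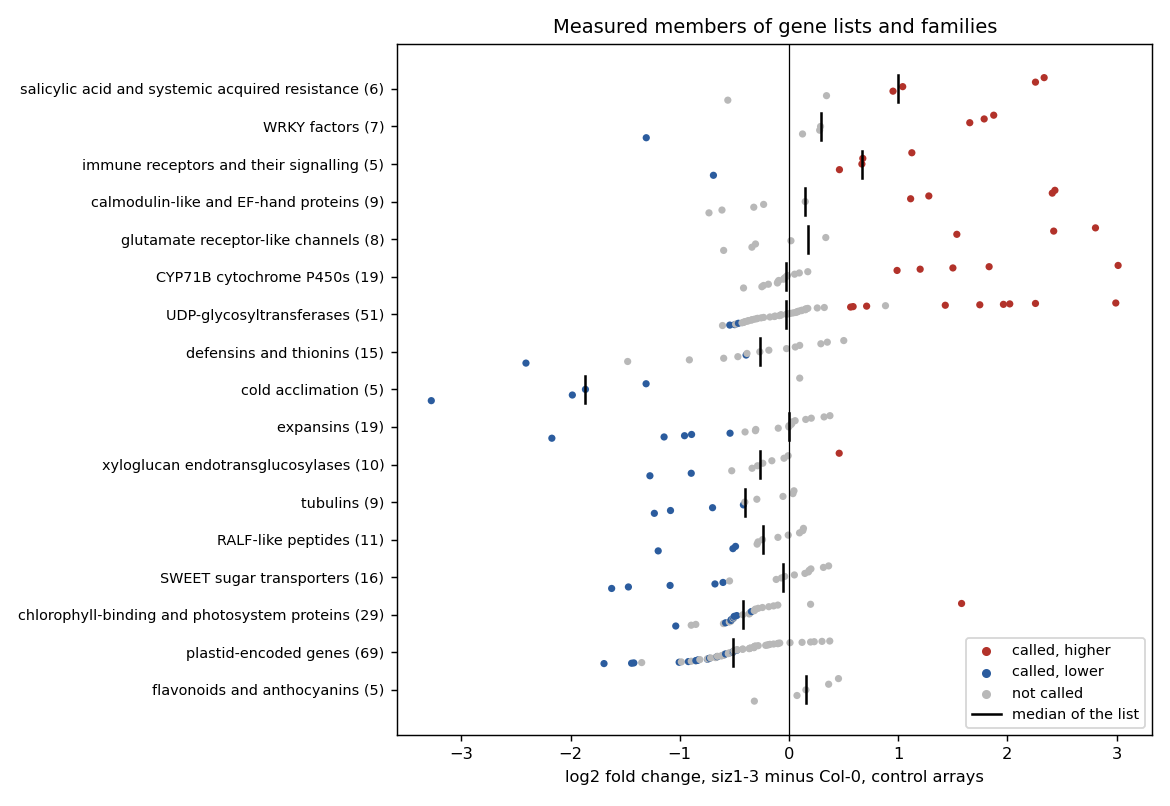
Log2 fold change, siz1-3 minus Col-0 on the control arrays, of each measured member of 17 lists and families, with the number measured in parentheses. Red and blue points passed at an adjusted p under 0.05, grey points did not, and the black bar is the list's median, which lies at -1.86 for cold acclimation, 1.00 for salicylic acid and near 0 for expansins, CYP71B and SWEET genes, where a few members stand apart.

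Markers of other cell types were set beside these groups. In bulk RNA, fewer cells of a type and less RNA per cell cannot be told apart. Of the root list 4 of 16 members were measured and 0 passed (limma, adjusted p under 0.05), and their summed signal was 916 to 997 in Col-0 and 651 to 752 in siz1-3. Nearly all of it was PYK10, a beta-glucosidase of root endoplasmic reticulum bodies, at 926 ± 33.4 and 662 ± 53.5 (-0.48 ± 0.15, adjusted p = 0.0518), which passed under 8 of 21 alternatives. Of the guard cell and stomatal lineage list 4 of 12 were measured, and their sum was 597 to 723 against 420.2 to 494. STOMAGEN, a mesophyll peptide that promotes stomata, fell from 460 ± 37.9 to 282 ± 22.3 (-0.68 ± 0.15, adjusted p = 0.0064). FMA, SPCH and MUTE, the factors that define the lineage, did not pass (adjusted p = 0.252, 0.765 and 0.053), and MUTE, at 2.74 ± 0.51 and 12.8 ± 4.74, passed under 4 alternatives. The trichome gene TRY was at 16.8 ± 10.5 and 3.85 ± 1.28 (adjusted p = 0.0693; 0.00433 without Col-0 control replicate 2). The stomatal sum was mostly STOMAGEN, whereas the lineage factors did not pass and MUTE read higher in siz1-3. Both sums were lower beside the growth genes, and their part in those results was not tested.

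By size alone, most leading genes carry only a locus code in the reference. Among genes whose 2 groups of arrays do not overlap, the 15 largest increases were CHI, AT1G10340, AT4G00700, AT4G20000, BGLU31, AT5G22530, AT1G57630, AT1G13470, AT4G18250, AT5G52760, AT1G26380, AT4G39670, LUP5, AT3G47480 and AT3G18250, from 3.65 to 4.92. AT1G10340 read 74.8, 51.0 and 60.4 in Col-0 and 1500.5, 1523 and 1538 in siz1-3. AT5G52760 read 200, 93.1 and 152 against 2117, 2114 and 2366. AT4G20000 was at 2.81 ± 0.24 in Col-0, at the bottom of the scale, and at 325 ± 36.6 in siz1-3.

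The 15 largest decreases ran from -2.01 to -3.97. They were ORA47, COR15A, AT3G28220, AT4G27654, AT4G25780, AT1G51090, THI2.2, AT3G53250, AT5G62280, EXLA1, AT5G03120, AT5G22580, AT1G75960, AT3G05900 and AT5G22460. AT3G28220 read 1393, 2527 and 1256 in Col-0 and 115, 219 and 244 in siz1-3. AT5G22580 read 2856, 2443 and 2655 against 615, 607 and 554. AT1G51090 read 836, 755 and 850.3 against 99.9, 107 and 109, with little spread within either genotype.

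Raised genes often lay beside other raised genes. Locus codes number the genes along a chromosome, usually in steps of 10, so codes within 30 of each other were taken as neighbours. Of 399 genes raised at least 2-fold that had a measured neighbour, 103 (25.8%) had one that was raised at least 2-fold as well, against 8.86% of all genes. For genes lowered at least 2-fold the shares were 7.95% (14 of 176) and 4.02%. The runs of raised genes numbered 37 of 2 genes, 7 of 3 and 2 of 4. A run of 4 was AT1G51850, AT1G51860, AT1G51890 and AT1G51920, at 1.75, 3.00, 3.20 and 3.46. Others were GLR2.8 with GLR2.7, UGT73B5 with UGT73B4, SBT3.3 with SBT3.5, and CYP71B22 with CYP71B23 and CYP71B24. Of the 6 lowered runs, one was COR15B with COR15A. Neighbours are often copies of one gene, whose transcripts a probe set can share. Probe sets that the array's names mark as reading several transcripts were 5.77% of all 832 raised at least 2-fold and 4.66% of all tested. These shares are not limited to the genes of the runs. In the runs, AT1G59930 and AT4G38550 were read by such probe sets.

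The same genotype difference was then read in the dehydrated arrays, whose fold changes share no array with those above, though the estimate of the spread is shared. There 12.4% of all probe sets were called higher in siz1-3 and 19.1% lower. Of the 832 probe sets raised at least 2-fold without stress, 815 (98%) were also higher in dehydrated siz1-3 than in dehydrated Col-0, and 736 (88.5%) were called so. Of the 402 lowered at least 2-fold, 347 (86.3%) were lower there too, 255 (63.4%) were called so, and 15 were called higher. Their median went from -1.26 to -0.73, and that of the raised ones from 1.55 to 1.46. Both sets were chosen by their control values, which favours smaller medians on other arrays. The raised side of the mutant's profile was thus found again in most cases, and the lowered side less completely. Whether the shares of the raised and lowered sets differ was not tested.

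Genes of 1 role often differed in how far the difference was found again. Of the cold genes, COR15A was still lower in dehydrated siz1-3, at 2572, 2828 and 2927 against 11549, 12554 and 13967. Its difference was smaller there, at -2.18 (interaction adjusted p = 0.012). COR15B had -2.26 (adjusted p = 4.12e-06). COR47 and LTI30 no longer differed by the test, at -0.17 and -0.04 (adjusted p = 0.354 and 0.856), and for both the change between conditions passed (interaction adjusted p = 0.000228 and 0.001, against 8.81% of all probe sets with a called interaction). ORA47 read 185, 182 and 223 in dehydrated Col-0 and 276, 272 and 221 in siz1-3, so the wild type had come down to near the mutant's level (0.35, adjusted p = 0.171; interaction adjusted p = 9.51e-06). THI2.2 kept its difference (-2.34, adjusted p = 8.72e-07).

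On the raised side, SBT3.3, RING1, GLR2.7 and WRKY6 had log2 fold changes of 4.07, 2.57, 2.30 and 1.76 in the dehydrated arrays, and no interaction was called. CHI was at 1695 ± 622 in dehydrated Col-0 and 9001 ± 462 in siz1-3, a smaller difference of 2.46 (interaction adjusted p = 0.000531). UGT76B1, F6'H1 (AT3G13610) and CML41 had larger differences after dehydration, 4.61, 5.53 and 3.92 (interaction adjusted p = 3.05e-05, 0.00891 and 0.000587; for F6'H1 the last missed the threshold with a pseudocount of 1). PRX71 (AT5G64120), raised 5.88-fold without stress, was at 0.37 (adjusted p = 0.162). Of growth genes, EXLA1 and EXLA2 no longer passed (-0.55 and -0.06), TUB1, TUB6, TUB5 and TCP15 stayed lower by 0.91 to 1.18, and XTH18 turned, from -0.89 to 1.98 (interaction adjusted p = 0.000641).

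**Figure D4:**
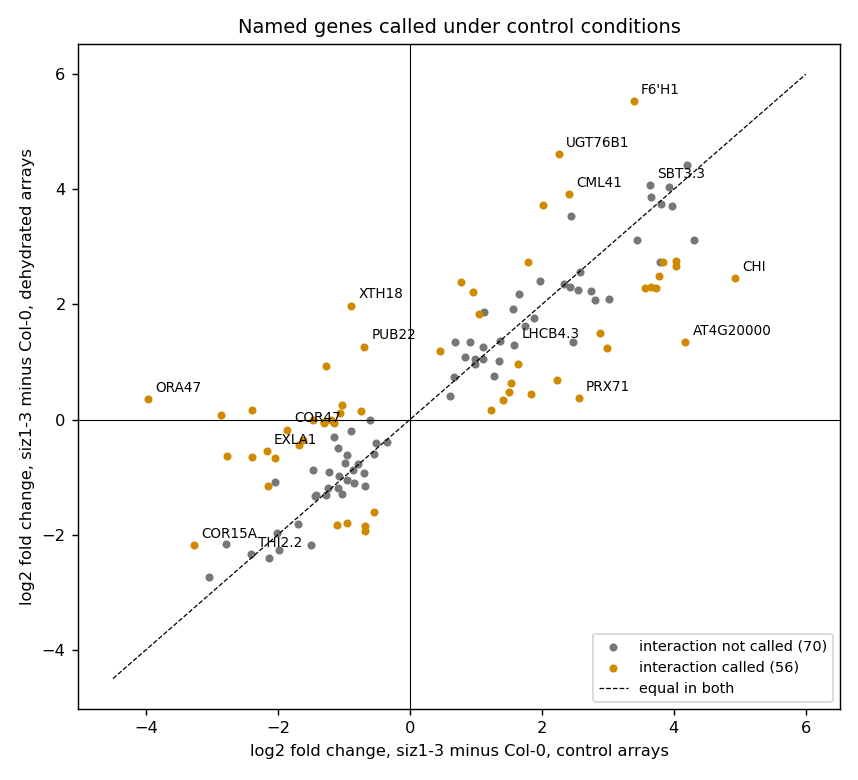
Log2 fold change, siz1-3 minus Col-0, of the 126 named genes called on the control arrays, with the control arrays on the horizontal axis and the dehydrated arrays, which are other samples, on the vertical axis. Genes on the dashed line had the same difference in both; the 56 drawn in orange had an interaction with an adjusted p under 0.05, among them ORA47 and COR47, which moved to near 0, and UGT76B1 and F6'H1, which moved up.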

How the data were processed

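The deposited values are a linear intensity per probe set of the ATH1 array, from RNA prepared with TriZOL and, per the labels, amplified by MessageAmp II-Biotin Enhanced. Each array was already scaled to 1 trimmed mean, as the values show. The probe summarisation software is a detail not given in the sources used here. Of 22810 probe sets, 64 controls were left out, a pseudocount of 16 was added and log2 taken. limma 3.58.1 in R 4.3.3 (lmFit and eBayes) was fitted to all 12 arrays with 1 mean per group (8 residual and 4.141 prior degrees of freedom), with Benjamini-Hochberg adjustment over 22746 probe sets, and tested on simulated data. The number of arrays, 3 a group, limits the precision. The same fit gave the dehydrated comparison and the interaction, the change in genotype difference between conditions.

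The members, lists and families were chosen with earlier results of these data known. Named genes are the 15 largest increases and decreases, up to 4 members a list and up to 3 a family. Patterns for thionins, P450s and glycosyltransferases were corrected, several families added, and further genes with a symbol named, after values were seen. Among the last are GRX480, BSMT1, BIK1, CML42, CYP71B6, NDB2, ERDJ3B, Fes1A, TIL, STZ, COR27, JMT, EXPB1, EXPA16, EXPA4, SKU5, ARL, EXO, XERICO, PORB and SWEET17. The families added then include the glutamate receptor-like channels, beta-glucosidases, CYP71B, SWEET, NPF, RALF-like and bZIP genes and the plastid-encoded genes. Counts for them describe values already seen. For a gene with several probe sets, the brightest is given. Names and neighbour order come from GEO's platform annotation and RefSeq (TAIR10.1). No coordinates are printed, since the array's build is not stated, and no sequences were used here, so a planned promoter motif search was not run.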

Additional observations from a re-analysis of the deposited data

Results flagged for a closer look

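Each value here is the log2 genotype difference (siz1-3 minus Col-0) in the dehydrated arrays minus that in the control arrays, for named genes whose interaction passed (limma, adjusted p under 0.05, as did 8.81% of all probe sets). Of 144 genes named besides SIZ1, 58 did, and 56 of these were called without stress. Of the 56, 42 had a smaller or turned difference after dehydration and 14 a larger one of the same sign. A turned difference can be the larger in size, as for XTH18. Many genes were named for large changes on the control arrays, which favours smaller differences on other arrays. The 8.81% is therefore no matched reference, and an effect of dehydration on these counts was not tested. The interaction call held under every alternative for 34 of the 58. It was fragile for WRKY53, kept under 5 of 20 alternatives, for AT5G03350 and CYP71B24, kept under 7, and for BIK1, LUP5 and SKU5, kept under 8. The calls of WRKY53, BIK1 and SKU5 also ended with the replicate block.

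Among raised defence, calcium and metabolite genes, the difference shrank for CHI (-2.47), SGT1A (-0.67), GLR1.4 (-0.90), LUP5 (-1.44), BGLU31 (-1.28), CYP71B36 (-1.40), CYP71B24 (-1.02) and UGT87A2 (-1.74). It grew for WRKY53 (0.96), UGT76B1 (2.35), SAG101 (0.79), AT5G03350 (1.27), BIK1 (0.73), CML41 (1.51), AT3G13610 (2.14) and UGT73D1 (1.71). The organ size gene ARL, also raised, gave 1.61. Raised redox, folding, wall and transport genes gave AT5G64120 (-2.19), YLS5 (-1.54), AT5G48570 (-1.05), ATPMEPCRB (-1.39), SAL2 (-1.28) and AT1G68570 (-1.07).

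For lowered genes a positive value means a smaller or turned difference. The defence regulators WRKY22 and PUB22 gave 1.24 and 1.96. Cold and jasmonate genes gave COR15A 1.09, COR47 1.69, LTI30 1.27, TIL 0.89, HIS1-3 1.18 and ORA47 4.33. Growth genes gave EXLA1 1.62, EXLA2 1.08, XTH19 2.202, XTH18 2.87, RALFL22 1.18 and BIM1 1.29, and transport genes and bZIP factors SWEET4 1.26, BZIP61 1.24 and BZIP34 1.46. Values below 0, a larger difference after dehydration, were those of MSRB6 (-0.72), EXPA16 (-1.06), GH9C2 (-1.17), SKU5 (-0.84), SWEET17 (-1.27) and the brighter SIZ1 probe set (-0.83). EXPA4 (-1.37) and DFR (-2.68) were not called without stress.

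Genes with only a locus code gave AT4G20000 (-2.83), AT5G22530 (-1.35), AT4G18250 (-1.10), AT4G39670 (-1.27) and AT3G18250 (-1.35) among those raised. Among those lowered they gave AT4G27654 (2.95), AT1G51090 (2.13), AT3G53250 (2.57), AT5G62280 (1.75), AT5G03120 (1.00) and AT1G75960 (1.37).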

How the results depend on the processing

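Of 128 probe sets named and called, both of SIZ1 included, 114 kept their call under all 21 alternatives, 14 lost it under 1 or more, and 0 reversed. Of 18 not called, 8 passed under 1 or more. The count of all calls, 3955, ran from 3175 to 4821 over the alternatives and from 3232 to 4172 with 1 array left out. Scaling moved the median log2 fold change by at most 0.03, which does not speak for bright genes. At the bright gene LHCB4.1 the change shrank to -0.14 under quantile normalization (limma, adjusted p = 0.437). How far scaling moves the photosystem and plastid-encoded genes as sets was not tested. The count lowered at least 2-fold, 402, became 202 with a pseudocount of 64, which shrinks all fold changes by construction. The interaction count, 2003, was 1270 to 1885 with 1 array left out, lowest without siz1-3 dehydration replicate 3 (1270) or 2 (1271), fits with fewer arrays. Whether replicate numbers pair the samples is open, since correlations this weak cannot decide it. Same-numbered control arrays deviated from their group means with r of -0.027, -0.013 and -0.044. For same-numbered control and dehydrated arrays of 1 genotype r was 0.01 to 0.053. It was 0.132 for Col-0 dehydration replicate 3 with siz1-3 control replicate 3. The fit with the replicate block called 3741. Dim signals limit the size of increases from low Col-0 levels.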
